A study of Homo sapiens and Homo sapiens
Mus musculus and Mus musculus with 9 samples.

Results

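Genes of DNA replication and of the passage from G1 to S phase were examined in C4-2B cells, a human prostate cancer cell line, with and without mouse pre-osteoblasts. The set was fixed by gene symbol and holds 43 genes, all of which were found among the 41713 genes of the deposited table. Messenger RNA was sequenced as 3 libraries of C4-2B cells cultured alone and 3 libraries of a mixed co-culture with 30 MC3T3-E1 cells for each C4-2B cell. Another 3 libraries held MC3T3-E1 cells only and do not enter the values below. All cells were labelled wild type, and the labels name no drug treatment. Nothing in the labels says that the libraries came from separate cultures. MC3T3-E1 cells are mouse pre-osteoblasts, and the mixed cultures therefore gave transcripts of both species.

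The authors separated human from mouse reads in 3 ways. Xenome sorted the reads by species before alignment, XenofilteR removed mouse reads after alignment to both genomes, and Kallisto assigned reads to human and mouse transcripts together. The value used here is the authors' mean for each pipeline, which is the average over the C4-2B and co-culture libraries of the read count divided by the size factor of the library. It is 1 number per gene and pipeline, so it has no replicate error. A difference between C4-2B cells alone and in co-culture is not given here, because such a mean does not separate the cultures. The values show how strongly each replication gene was measured over both cultures together and how far that measure depended on the way mouse reads were removed.

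Origins are licensed in G1, when the origin recognition complex, CDC6 and CDT1 load the ring of MCM2 to MCM7 onto them. At the start of S phase, kinases that include CDC7 with DBF4 let CDC45 and the GINS proteins join the ring, which becomes the active helicase. E2F transcription factors and cyclin E drive this step, and many genes of the set are textbook E2F targets.

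The 43 genes were well measured in these libraries. All 43 lay above the median of the 17808 protein-coding genes with a mean in all 3 pipelines. Among these, 30 of 43 reached percentile 75 or higher. The 17808 genes include many with low means, and these counts were not repeated without them. The 43 genes had a median of 3981 normalised counts, against 518.6 for the 17808 genes. Their percentile among these genes had a median of 85.0 and ran from 55.2 for GINS3 to 98.4 for MCM7. Another 42 genes of replication and the G1/S step, taken from a fixed list, had a median of 2276 normalised counts and a median percentile of 74.2. Means are not divided by transcript length, so they rank genes by read count, and levels of different genes are compared per length further on.

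Among the 10 genes of origin licensing, the helicase ring held the most counts. MCM7 had the highest mean of all 43 genes, with 17762 normalised counts by Xenome, 18046 by XenofilteR and 18011 by Kallisto. MCM4 followed with 11561, 11565 and 11550. MCM3 had 7252, 7249 and 7209. These 3 ring subunits differed by less than 2% between pipelines. MCM6 had 5882, 5880 and 5893 normalised counts in the same order. MCM5 had 5219, 5225 and 5044. The remaining subunit, MCM2, had 7003, 7186 and 9455, so its Kallisto value stood apart. CDC6, which brings the ring to the origin, had 6339, 6484 and 6523 normalised counts. CDT1, its partner in loading, had 2121, 2120 and 2114. The origin recognition complex subunits had the fewest counts of this group, with 1912, 1911 and 1940 for ORC1 and 1925, 1927 and 1862 for ORC6. Their order turned with Kallisto, and the Xenome means of ORC1 and ORC6 differed by less than the counting error of either (31.8 and 31.9).

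The 8 genes that turn the loaded ring into a helicase had a median of 2974 normalised counts against 6183 for origin licensing. GINS1 had 6275, 6302 and 6157 by Xenome, XenofilteR and Kallisto. GINS2 had 1261, 1256 and 1275. GINS3 had 782, 784 and 1067, and GINS4 had 1725, 1727 and 2276. Of these 4 proteins of 1 complex, GINS3 and GINS4 differed by over 25% between pipelines and GINS1 and GINS2 by less than 5%. CDC45, which joins GINS on the ring, had 2341, 2342 and 2341 normalised counts. MCM10, an initiation factor needed for origin unwinding, had 4550, 4554 and 4573. CDC7 had 3608, 3608 and 3607, the closest match between pipelines of all 43 genes (a range of 0.028%). Its activating subunit DBF4 had 4395, 4356 and 4707.

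The polymerases, the clamp and the lagging strand factors made up 13 genes. PCNA, the sliding clamp that tethers polymerases to DNA, was the highest of them with 8095 normalised counts by Xenome, 8931 by XenofilteR and 8902 by Kallisto. Here the low value was that of Xenome. The same held for RFC5, a subunit of the clamp loader, with 2264, 2743 and 2751. The other clamp loader subunits differed by less than 5% between pipelines. RFC2 had 4894, 4928 and 5027, RFC3 had 5424, 5422 and 5386, and RFC4 had 2891, 2888 and 2843. FEN1, the flap nuclease of Okazaki fragments, had 6214, 6200 and 6435. LIG1, the ligase that joins these fragments, had 1378, 1415 and 1421. RPA2, which coats single-stranded DNA, had 3364, 3364 and 3332. The leading strand polymerase POLE had 4391, 4427 and 4349. Its second subunit POLE2 had 787, 791 and 740, among the fewest counts of the set. POLA1, which extends primers, had 3197, 3228 and 3232, and the primase subunit PRIM1 had 1814, 1803 and 2267. POLD1, the catalytic subunit of the lagging strand polymerase, had 2935, 2933 and 3030.

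The 4 genes of nucleotide supply had the highest median of the groups, 10114 normalised counts. RRM2 and RRM1, the subunits of ribonucleotide reductase, had 16946, 16933 and 17034 and 11444, 11732 and 11873. TK1, the salvage enzyme for thymidine, had 8495, 8513 and 8445. TYMS, which makes thymidylate, was the least stable gene of the set, with 3529 by Xenome, 4074 by XenofilteR and 8511 by Kallisto. Its Kallisto mean was 2.41 times its Xenome mean.

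The 4 regulators of the G1/S step had the lowest median, 1462 normalised counts. E2F1 had 4019, 4013 and 4000, and E2F2 had 1303, 1304 and 1319. CCNE1, a cyclin E gene, had 903, 910 and 911. CCNE2, the other cyclin E gene, had 1606, 1621 and 2417. Of these 4, only CCNE2 moved by more than 2% between pipelines. The 4 genes of chromatin at the fork fell in between. CHAF1A and CHAF1B, subunits of the histone chaperone CAF-1, had 4611, 4631 and 4704 and 3184, 3185 and 3320. SLBP, which binds histone messenger RNA, had 3821, 4000 and 3981. UHRF1, which guides DNA methylation after replication, had 2909, 2889 and 5076.

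**Figure D1:**
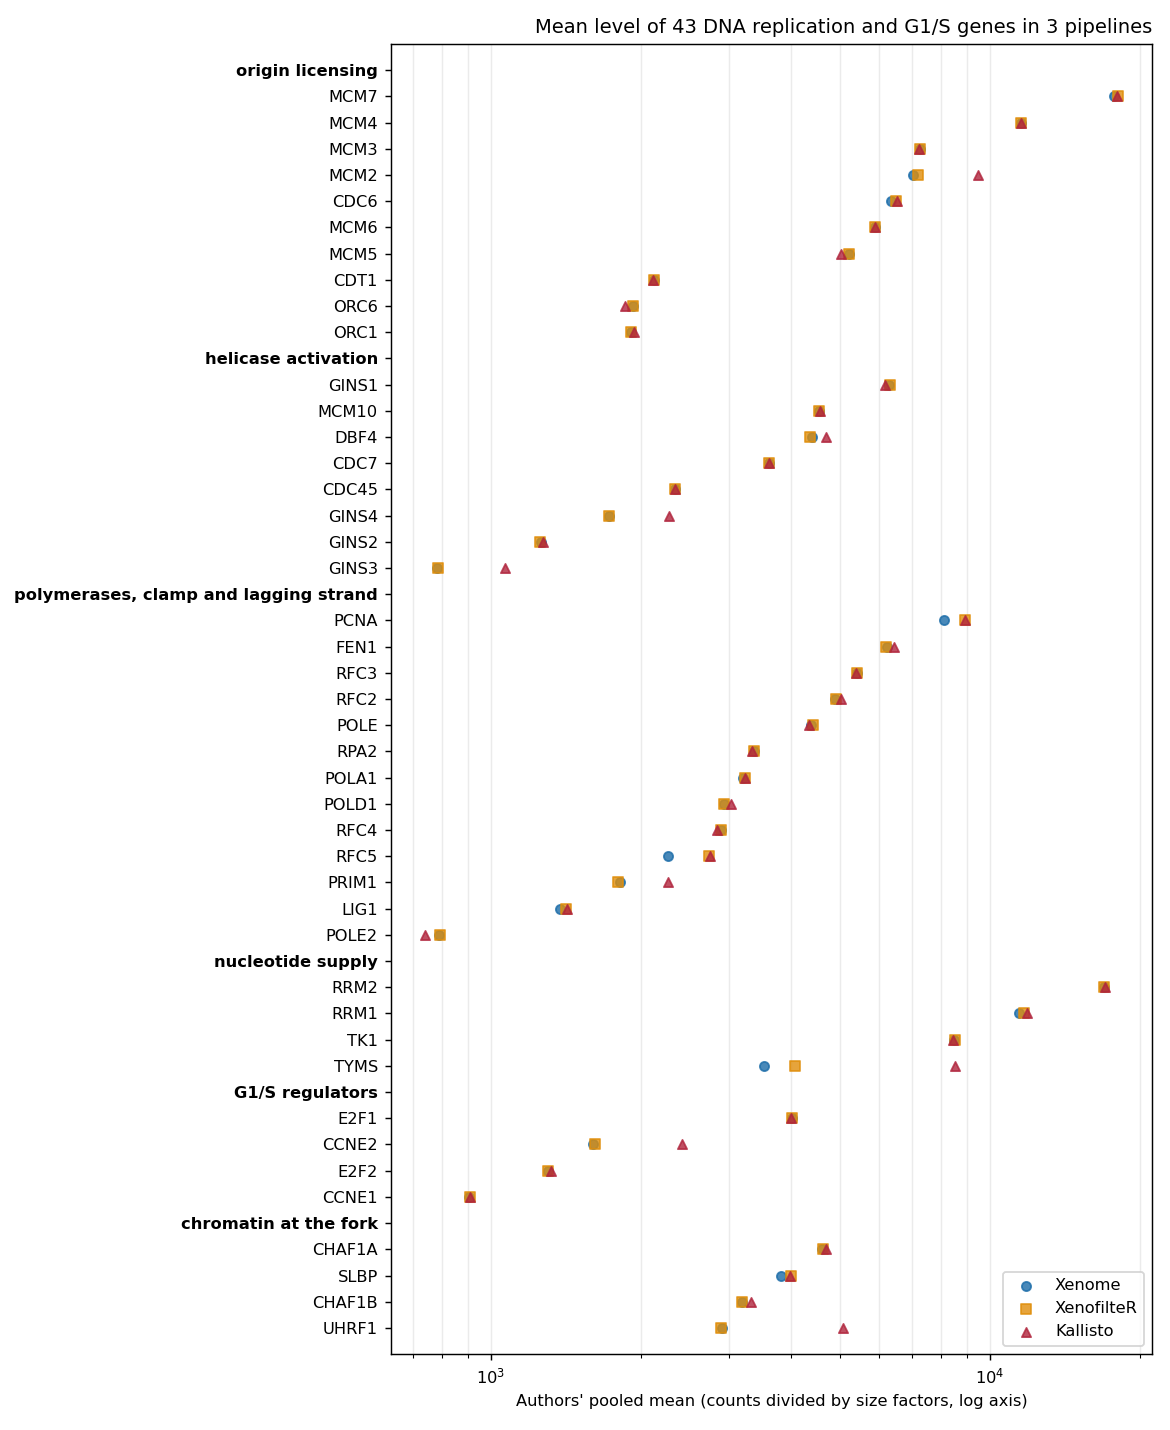
Authors' mean of each of the 43 genes (log axis, counts divided by size factors, averaged over the C4-2B and co-culture libraries), with 1 symbol per pipeline and the genes grouped by role. For most genes the 3 symbols lie on each other. The Kallisto symbol stands to the right for TYMS, UHRF1, CCNE2, GINS3, MCM2, GINS4 and PRIM1, and the Xenome symbol stands to the left for RFC5 and PCNA.

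The depth of the libraries set the counting error. From the low Xenome means, the 6 libraries were estimated to hold from 4.61 to 251 M human counts. They fell into 2 sets of 3, with 206, 225 and 251 M counts and with 4.61, 6.14 and 18.1 M counts. The deepest was 54.4 times the shallowest. All 10885 Xenome means below 1 could be written as whole reads of the solved libraries. In the libraries with 6.14 and 4.61 M counts, 1 read adds 1.15 and 1.53 to a mean. Means below 1 therefore hold no read of these libraries and do not check their depth. No solved library was tied to a culture. Every library has the same weight in the mean, so the shallow libraries carry most of the counting error. GINS3, the lowest gene by Xenome, would have 85.1 reads in the shallowest library at its mean. The counting error of a Xenome mean ran from 0.545% for MCM7 to 2.60% for GINS3, with a median of 1.21% over the 43 genes. It assumes the same level in all libraries and holds no spread between cultures.

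The libraries held the markers of the labelled human cells. The 9 measured prostate markers had means from 4603 (TMPRSS2) to 51038 (KLK3). KLK2 had also been chosen as a marker and is not among them. Of 10 markers of osteoblasts and mesenchyme, 5 had a mean below 5, with ALPL (0.103), SP7 (0.984) and IBSP (3.09) the lowest. COL1A1 was the highest with 3384, and RUNX2 (399.7), SPARC (141.8) and PRRX1 (94.8) lay between. COL1A2 was 45.0 by Xenome, 263.6 by XenofilteR and 221.6 by Kallisto. Whether mouse reads counted as human add to any of the 43 genes was not tested.

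Pipelines were compared by the difference of log2(mean + 1), centred on the median protein-coding gene with a mean of at least 10 in both pipelines. The pipelines read the same libraries, so these differences are described without a test. By the means as deposited, without centring, 20 of 43 genes (46.5%) stayed within 2% between all 3 pipelines, against 28.6% of 13229 protein-coding genes with a mean of at least 10 in each. Within 5% were 32 of 43 (74.4%), against 48.6%. Protein-coding genes include many with lower means than the 43. By Kallisto, 7 of 43 genes (16.3%) were at least 0.25 higher than by Xenome, against 20.8% of 13243 protein-coding genes. None of the 43 was at least 0.25 lower, against 3.81% of protein-coding genes. The share of replication genes at least 0.25 higher by Kallisto was near that of protein-coding genes, and the difference between these shares was not tested. Among the other 42 replication genes, 7 were at least 0.25 higher by Kallisto, with the largest difference, 3.51, for RNASEH2A.

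The 3 largest log2 differences of Kallisto minus Xenome were those of TYMS (1.24), UHRF1 (0.77) and CCNE2 (0.56). GINS3 (0.42), MCM2 (0.40), GINS4 (0.37) and PRIM1 (0.29) completed the 7. RFC5 lay just below the limit at 0.249, and the next gene was PCNA at 0.10. The 3 lowest were POLE2 (−0.12), MCM5 (−0.08) and ORC6 (−0.08). The interquartile range of protein-coding genes lay between −0.04 and 0.17, and 27 of the 43 genes fell inside it. When the pipelines were centred on their summed means instead, 3 genes were at least 0.25 higher, against 15.5% of protein-coding genes, and 3 were at least 0.25 lower, against 14.1%.

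The alignment-based pipelines lay close together. XenofilteR was within 0.01 of Xenome on the log2 scale for 29 of 43 genes (67.4%), against 71.9% of 13229 protein-coding genes. It was at least 0.1 higher for 3 genes, against 3.07% of 13321 protein-coding genes, and at least 0.1 lower for none, against 0.796%. The 3 were RFC5 (0.28), TYMS (0.21) and PCNA (0.14). SLBP was next with 0.07. For RFC5 and PCNA, XenofilteR and Kallisto gave nearly the same mean. For TYMS, the 3 pipelines gave 3 different means.

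**Figure D2:**
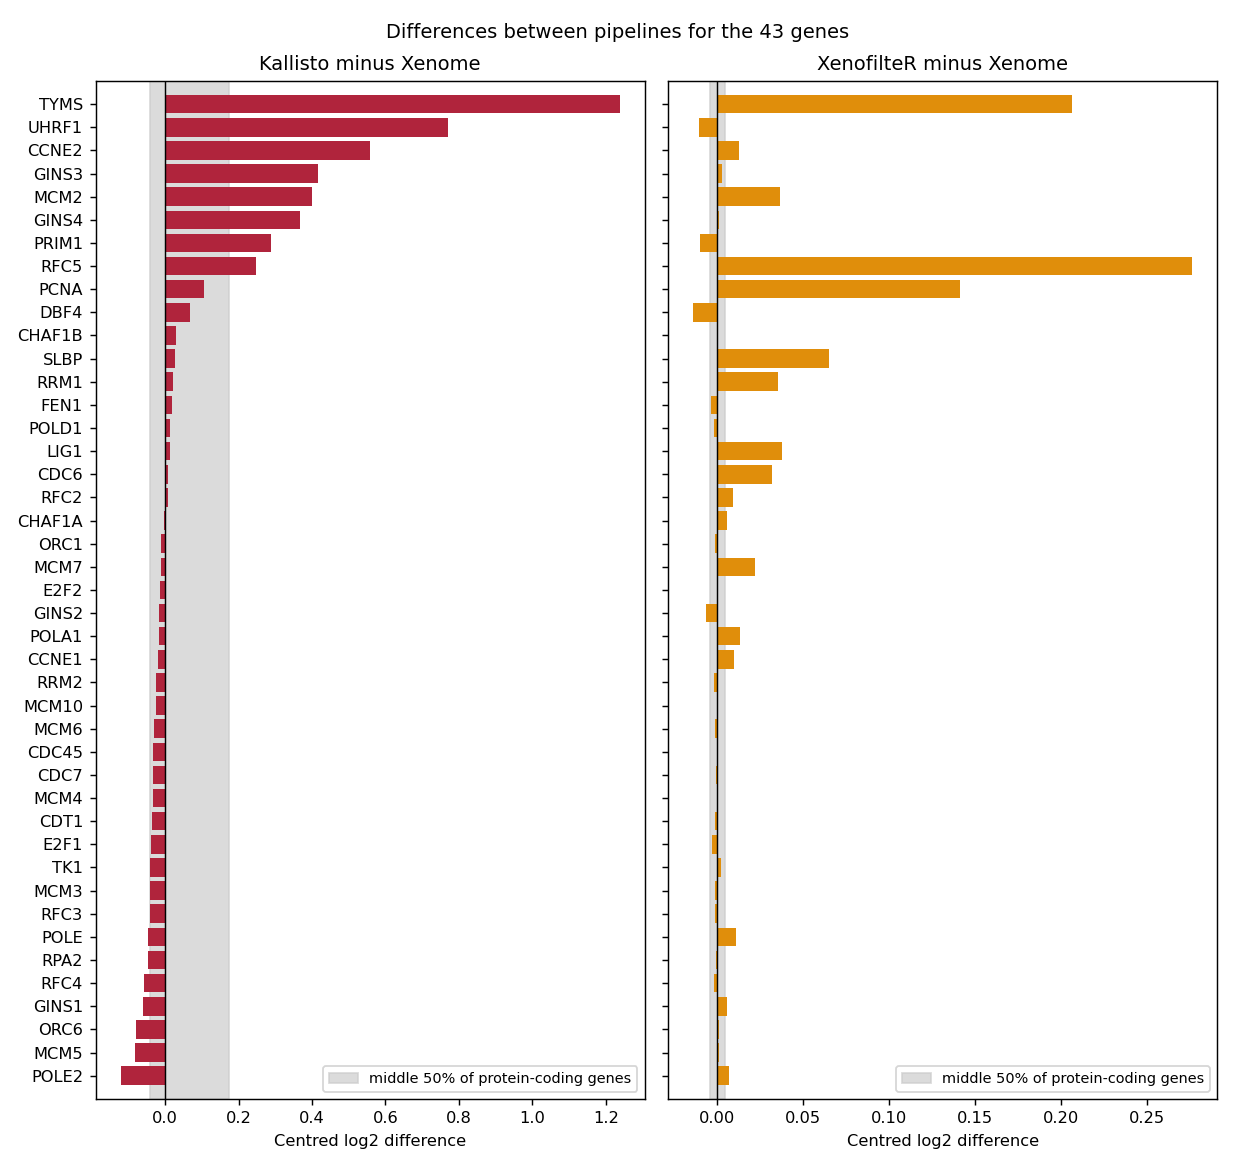
Centred log2 difference of Kallisto minus Xenome (left) and of XenofilteR minus Xenome (right) for each of the 43 genes, as bars in the order of the left panel. The grey band spans the interquartile range of protein-coding genes. TYMS has the longest bar on the left (1.24) and RFC5 the longest on the right (0.28); the axes of the panels differ in scale.

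The genes with higher Kallisto means share exon sequence with other human genes. A 31-base sequence of a gene was counted as shared when it occurs, on either strand, in a transcript of another human gene of GENCODE release 44. All 7 genes that were at least 0.25 higher by Kallisto had at least 10% of their sequences shared in this way, and 10 of the 43 genes (23.3%) did, against 33.9% of protein-coding genes. The median share was 27.3% in the 7 genes and 2.48% in the other 36. The same held over protein-coding genes, of which 46.5% with a share of at least 10% were higher by Kallisto, against 8.44% of the rest. Over the 43 genes, the rank correlation of the share with the difference was 0.60. It describes genes that were read from the same libraries, and genes are not independent replicates.

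TYMS on chromosome 18 (657653 to 673578, plus strand, GRCh38) had the largest share of the set, 44.2%. ENOSF1, a protein-coding gene on the opposite strand, covers 967 exon bases of TYMS, which is 39.9% of its exon bases. TYMSOS, a long non-coding RNA at the other end of TYMS, covers 7.97% more. ENOSF1 moved the other way from TYMS, with 1938 normalised counts by Xenome, 1944 by XenofilteR and 1485 by Kallisto. TYMSOS had 436.8 by Xenome and 434.5 by XenofilteR, and no Kallisto value.

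CCNE2 on chromosome 8 (94879770 to 94896678) is overlapped by INTS8, a subunit of the Integrator complex, over 37.0% of its exon bases on the opposite strand. INTS8 had 2990, 2991 and 3525 normalised counts by Xenome, XenofilteR and Kallisto, so both partners were higher by Kallisto. MCM2 on chromosome 3 (127598410 to 127622436) is overlapped over 23.6% by the long non-coding RNA ENSG00000285600, which had 215.3 by Xenome. GINS4 on chromosome 8 (41529218 to 41545030) is overlapped over 21.0% by the non-coding gene ENSG00000253174. GINS3 on chromosome 16 (58295080 to 58406144) is overlapped over 10.9% by the non-coding gene ENSG00000276131. The partners of GINS4 and GINS3 had low Xenome means, 8.94 and 8.84. These non-coding partners of MCM2, GINS4 and GINS3 had no Kallisto value.

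PRIM1 and UHRF1 differ from these 5 genes. PRIM1 on chromosome 12 (56731296 to 56752374) overlaps on its own strand with the protein-coding gene model ENSG00000285625 over 10.9% and with NACA over 4.20%, and on the opposite strand with HSD17B6 over 3.99%. UHRF1 on chromosome 19 (4903080 to 4962154) shares no exon base with another gene, but 23.1% of its sequences occur in ENSG00000256663, a processed pseudogene on chromosome 12 (20551590 to 20553012). That pseudogene had 408.7 normalised counts by Xenome and 424.3 by XenofilteR, and no Kallisto value. The kit keeps strand, but whether the authors' counting used it is not given in the sources used here, so reads of opposite-strand partners may not have been told apart. The part of shared reads in the differences was not tested.

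Of the 6 genes with at least 10% of their exon bases under an opposite-strand gene, 5 were among the 7. The other was RFC5 (10.6%, under WSB2 and ENSG00000277873), which lay just under the limit at 0.249. For RFC5 the Xenome mean was the low one, and its log2 difference of Kallisto minus XenofilteR was −0.02. Of protein-coding genes, 12.6% had such an overlap, and 42.7% of these were at least 0.25 higher by Kallisto, against 17.0% of the rest. Shared sequence did not always go with a difference. DBF4 had 26.5% of its sequences in other human genes, mostly in the pseudogene DBF4P1, and a difference of 0.07. CHAF1B (16.2%) and ORC6 (16.0%) also had shares above 10% and lay at 0.03 and −0.08. The 32 genes without such overlap of any kind ranged from −0.12 to 0.10.

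**Figure D3:**
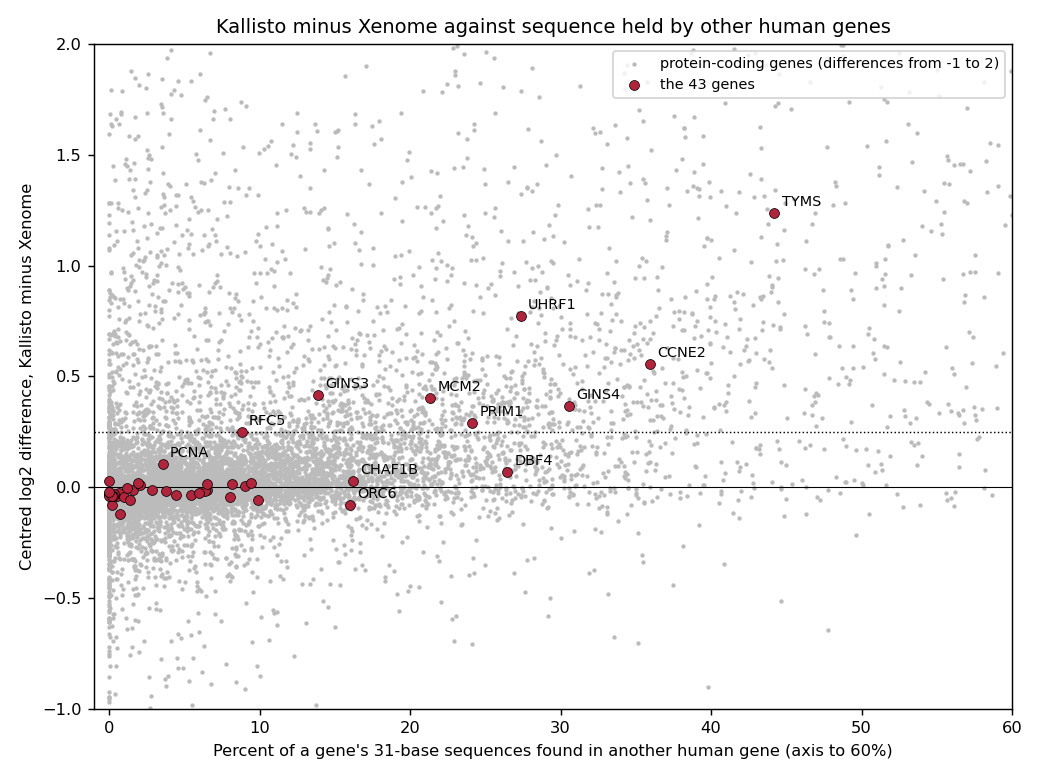
Centred log2 difference of Kallisto minus Xenome (vertical axis) against the percent of a gene's 31-base sequences found in another human gene (horizontal axis, shown to 60%). Red points are the 43 genes and grey points are protein-coding genes with differences from −1 to 2. The 7 red points above the dotted line at 0.25 all lie right of 10%, while DBF4, CHAF1B and ORC6 lie right of 10% near 0.

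Replication genes are conserved, so part of their sequence is identical in the mouse. A median of 0.698% of the 31-base sequences of the 43 genes occur in mouse transcripts (GENCODE release M21), against 0.551% for protein-coding genes. The highest was RRM1 with 2.28%. At least 1 such sequence was found in 38 of 43 genes, and this count was not made over protein-coding genes. ORC1, CDT1, GINS2, RPA2 and TK1 had none. The rank correlation of this share with the difference of XenofilteR and Xenome was 0.15 over the 43 genes. Over 13301 protein-coding genes it was −0.07. Of 13 genes with at least 1% shared, 1 (PCNA) was at least 0.1 higher by XenofilteR, against 3.07% of 13321 protein-coding genes whatever their share. RFC5 (0.982%) and TYMS (0.698%) lay below 1%.

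The longest coding stretches that PCNA, RFC5 and 4 further members share with mouse within 1 exon are shown, since sequence tells the species apart least at such places. Capitals mark the bases covered by 31-base sequences of mouse transcripts, and lower case bases flank them in the same exon. All are from GRCh38, in the direction of the gene. The PCNA stretch is in exon 1 of the transcript used (chr20:5119590-5119645, minus strand), and the RFC5 stretch in exon 8 (chr12:118026889-118026956, plus strand). FEN1 (exon 2, chr11:61796214-61796288, plus strand), SLBP (exon 3, chr4:1703596-1703660, minus strand), RRM1 (exon 12, chr11:4123292-4123362, plus strand) and POLA1 (exon 21, chrX:24741415-24741504, plus strand) are shown for comparison.
PCNA: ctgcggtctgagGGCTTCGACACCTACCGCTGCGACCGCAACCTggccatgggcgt
RFC5: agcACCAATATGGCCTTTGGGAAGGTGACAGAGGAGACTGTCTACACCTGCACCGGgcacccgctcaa
FEN1: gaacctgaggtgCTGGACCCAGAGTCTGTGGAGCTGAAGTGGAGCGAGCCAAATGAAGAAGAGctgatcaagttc
SLBP: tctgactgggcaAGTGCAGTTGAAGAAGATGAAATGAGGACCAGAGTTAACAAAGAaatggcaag
RRM1: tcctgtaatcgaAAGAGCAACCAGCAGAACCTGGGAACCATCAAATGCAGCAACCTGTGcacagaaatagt
POLA1: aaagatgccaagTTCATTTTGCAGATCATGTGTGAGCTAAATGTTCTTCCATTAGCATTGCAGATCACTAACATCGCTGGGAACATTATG

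The marked stretch is 78 bases long in POLA1, 53 in RFC5, 51 in FEN1, 47 in RRM1, 44 in SLBP and 32 in PCNA. POLA1 has the longest of these 6 stretches but differed by 0.01 between XenofilteR and Xenome, whereas RFC5 differed by 0.28 and PCNA by 0.14. In coding sequence, 20.0% of POLA1 bases, 12.1% of RFC5 bases and 10.5% of PCNA bases are covered by such sequences. The mouse sequences that match PCNA lie in the processed pseudogene Pcna-ps2 and not in Pcna itself. For RFC5 it gave the mouse counterpart Rfc5 and the processed pseudogene Gm12870. Which reads the pipelines kept was not tested.

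Levels of different genes can be compared only per length of transcript. Per kb of the median transcript length, RRM2 was the highest of the 43 genes (21532 normalised counts per kb) and E2F2 the lowest (453.7). Per kb of the longest transcript, PCNA was highest (6551) and GINS3 lowest (244.7), and RRM2 had 4614. Per kb of the canonical transcript, MCM7 was highest (7301) and E2F2 lowest (250.9), and RRM2 had 5201. The subunits of a complex differed in level on each length scale. In the ring, the GINS complex and the clamp loader, the order of the subunits depended on the length used. Within the ring, MCM5 had the highest level per kb of the median transcript (9125) and the lowest per kb of the canonical transcript (1509), where MCM7 was highest (7301). MCM5 was also lowest of the ring per kb of the longest transcript. Among the GINS genes, GINS1 was highest and GINS3 lowest on the 3 scales, with ratios of 1.60 for the median, 5.70 for the longest and 5.32 for the canonical transcript. RFC2 was the highest of the clamp loader subunits on the 3 scales, and RFC5 was the lowest on all but the median length. Among the polymerase and primase genes, POLE was highest per kb of the median transcript (1947), while PRIM1 was highest per kb of the canonical transcript (1275) with POLE at 561.3.

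Pairs of partner genes kept their order in most cases. RRM2 stood above RRM1 by 1.12 to 1.39 times on the 3 length scales. CHAF1A stood above CHAF1B by 1.93 to 2.97 times, and E2F1 above E2F2 by 3.29 to 5.95 times. ORC6 stood above ORC1 by 1.71 to 2.62 times, although their means without length were nearly equal. CCNE2 stood above CCNE1 by 1.05 to 3.17 times. CDC7 stood above DBF4 per kb of the median transcript, and the order was turned on the other scales.

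**Figure D4:**
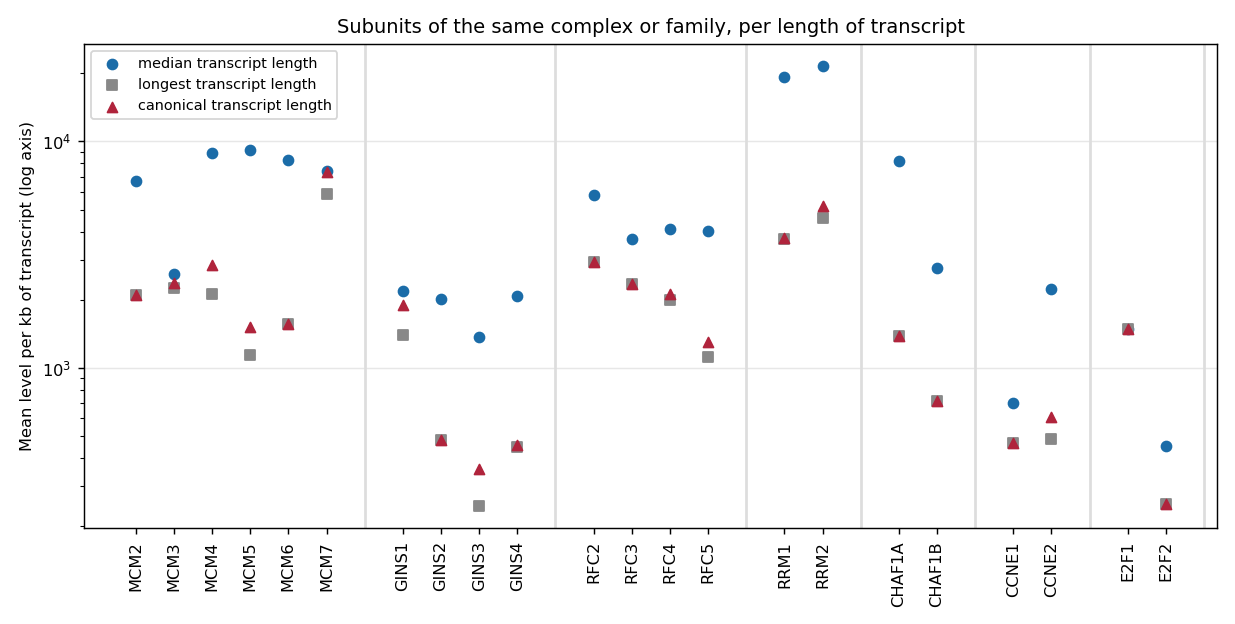
Mean level per kb of transcript (log axis) for subunits of the same complex or family, with 1 symbol for each way of taking the transcript length. GINS1 lies above GINS3 and RRM2 above RRM1 on all 3 scales, whereas MCM5 is at the top of the ring on the median length and at the bottom on the others.

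The promoters were searched for short motifs of cell cycle genes, with no test. The set holds many textbook E2F targets, so a high share of E2F-type letters is not independent of the choice of genes. Windows of 300 bases, from 250 before to 50 after a start site of the gene, were taken from RefSeq (GRCh38.p14) and matched by symbol for 38 of the 43 genes. CCNE2, GINS4, MCM4, MCM5 and RPA2 had no entry. The RefSeq start can lie inside the span that the deposited table gives for a gene, as it does for UHRF1 and GINS3. An E2F-type match was any of TTTCCCGC, TTTCGCGC, TTTGCCGC and TTTGGCGC on either strand. It was present in 19 of 38 promoters (50.0%), against 675 of 15068 promoters of protein-coding genes (4.48%). The letters CCAAT on either strand were present in 20 of 38 (52.6%), against 36.6% of all promoters. TTTGAA or TTCGAA on either strand, the core of the CHR element of late cell cycle genes, was present in 3 of 38 (7.89%), against 13.4%. Matches may overlap each other, also between motifs. A match is a description of letters and not of a bound factor.

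The 19 promoters with an E2F-type match belonged to 6 genes of origin licensing, 3 of helicase activation, 6 of the polymerases and lagging strand, TYMS, E2F1, E2F2 and UHRF1. The window held 2 matches in E2F1, MCM2, MCM3 and MCM7 and 4 in MCM6, and some of those in MCM2 and MCM6 overlap. Windows of 28 bases around a match are shown for genes of different roles, with the matched letters in capitals and in the direction of the gene; a match on the other strand reads as its reverse complement. They lie at chr17:40287876-40287903 (CDC6, plus strand), chr2:135876578-135876605 (MCM6, minus strand), chr3:127598403-127598430 (MCM2, plus strand), chr20:25407668-25407695 (GINS1, plus strand), chr20:5126664-5126691 (PCNA, minus strand), chr1:23531258-23531285 (E2F2, minus strand) and chr19:4909477-4909504 (UHRF1, plus strand).
CDC6: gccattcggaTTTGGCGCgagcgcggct
MCM6: gggctttgcaTTTGGCGCgaaatccctt
MCM2: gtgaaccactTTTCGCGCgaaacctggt
GINS1: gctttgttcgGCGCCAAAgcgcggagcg
PCNA: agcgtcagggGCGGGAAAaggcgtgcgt
E2F2: cggcacgacgTTTGGCGCtaaaaaaaaa
UHRF1: ccgagttttcGCGGGAAAaaaatcagag

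CDC6, MCM6, GINS1 and E2F2 show the same form, TTTGGCGC, on 1 strand or the other, while PCNA and UHRF1 carry TTTCCCGC on the other strand. These genes had means from 1304 (E2F2) to 8902 (PCNA) normalised counts. The genes MCM7, RRM2 and RRM1 had the 3 highest means, and of these MCM7 had an E2F-type match while RRM2 and RRM1 had none in this window.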

How the data were processed

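RNA from 3 libraries of C4-2B cells and 3 of the co-culture was read as 50 bp paired ends; read separation, alignment with HISAT2 to GRCh38, counting with FeatureCounts, and Kallisto are as the authors describe, and tool versions are not given in the sources used here. The deposited values used are the authors' mean over both groups of counts divided by DESeq2 size factors, for 3 pipelines. A further 15 columns hold the authors' own comparison of the groups in each pipeline (log2 fold change, its standard error, test statistic, p-value and adjusted p-value) and were not used, so no test between cultures was made. The table has 41734 rows, and 21 repeated rows were dropped. Members and lists were chosen with earlier results of these data known. The genes named are all 43 members, with the 3 largest and 3 lowest differences of Kallisto and Xenome.

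The pseudocount was 1. A gene's level is the median of its 3 pipeline means. Percentiles are among protein-coding genes. Size factors were solved from low means, some of them above 1. They were checked against means below 1 (tolerance 2e-08), and the solving was tested on simulated data. Sequence sharing, exon overlap and lengths came from GENCODE releases 44 and M21. Alternatives were other pseudocounts, centrings, filters, gene sets, lengths and a 25-base word. The computation ran in python 3.11.15 with numba 0.67.0, numpy 2.4.6, scipy 1.17.1, pandas 2.3.3 and, for plots, matplotlib 3.10.9.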

Additional observations from a re-analysis of the deposited data

How the results depend on the processing

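The median percentile of the 43 genes was 83.4 by Xenome alone, 83.6 by Kallisto alone and 79.8 among protein-coding genes with a mean of at least 10, against 85.0. Centring Kallisto and Xenome on summed means left 3 genes (TYMS, UHRF1 and CCNE2) at least 0.25 higher, in place of 7, and put 3 (POLE2, MCM5 and ORC6) at least 0.25 lower, in place of 0. This centring lowers every difference by the same amount, and with it PCNA lay at −0.07. The other centring, pseudocounts and filters left the counts at 7 or 8 higher and 0 lower, and at 3 higher and 0 lower for XenofilteR. The median level per kb was 1135 on the longest and 1304 on the canonical transcript, an alternative chosen after seeing the data, against 2895. With 25-base sequences, 1.63% was shared with mouse, against 0.698%. Of the values for single genes under the alternatives, 132 moved little and 12 moved, all of these by centring on summed means. No paired analysis was possible because the values used are means over all libraries; for the same reason no replicate could be left out. Depth limits the means through the shallowest library, which holds 4.61 M estimated human counts.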
